A study of Rattus norvegicus with 24 samples.

Results

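The genes described here encode the proteins of the cytosolic ribosome, in the livers of rats fed diets that differed in copper and sucrose. They were chosen by name: every probe whose gene name begins with Rpl or Rps followed by a digit, without the Rps6k kinases. The rule found 83 gene names among 26278 on the array, with 145 probes. Of these, 80 names passed the filter on dim probes and were tested among 18641 genes, and all 80 were well above background on all 24 arrays. The 80 comprise 43 large-subunit proteins, 30 small-subunit proteins and 7 names of paralogs or pseudogene copies. The other 3 names were too dim to test. Rpl3l, the muscle-type relative of Rpl3, was above background on 1 array, the pseudogene copy Rpl27-ps1 on 1, and Rps19bp1, which the name rule takes in although it encodes a partner of Rps19 and no ribosomal protein, on 4.

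The series examined dietary sucrose and copper in a rat model of fatty liver disease. Liver RNA of 24 male Wistar rats was hybridised to 1-colour arrays, 1 rat per array and 6 rats per diet. The rats entered at 6 months of age after a standard pellet diet and were 9 months old at sampling, after 12 weeks on a purified diet based on AIN76A. The 4 diets were adequate copper (125 mg per kg) with 10% sucrose, the control diet; low copper (under 0.3 mg per kg) with 10% sucrose; adequate copper with 30% sucrose; and low copper with 30% sucrose. Starch and dextrin made up the remaining carbohydrate in all of them. The 3 comparisons against the control diet share its 6 rats.

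The cytosolic ribosome has a small subunit, which reads the messenger RNA, and a large subunit, which joins amino acids. Its proteins are made in matched amounts, and liver, which exports much of the plasma's protein, carries many ribosomes. The messenger RNAs of most ribosomal proteins begin with a terminal oligopyrimidine tract, a C followed by further C and T (U in the RNA) bases, through which the mTOR pathway and the protein LARP1 adjust their translation together. This adjustment acts on translation, which an array of RNA levels does not read.

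RefSeq annotated start sites (build GRCr8) were found for 63 of the 83 names, with 64 starts. A C followed by at least 4 bases that were each C or T began exactly at the start base in 34.4% of the 64, against 2.63% of all 33469 starts, and within 10 bases of it in 75% against 28.9%. Read on the opposite strand from the same base, it was found at 0 of the 64 and at 3.69% of all. The following windows run from 15 bases before the start to 15 from it, with the run in capitals where one began within 10 bases. They are shown for 5 members with the run at the start, and for the pair Rpl22 and Rpl22l1, which differ.
Rpl19: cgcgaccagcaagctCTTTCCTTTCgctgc
Rpl37a: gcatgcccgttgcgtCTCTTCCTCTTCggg
Rps7: tcgcgagagctgtgtCTCTTTCTaagccgg
Rps18: cacgtcacttccgctCTCTCTTCCacagga
Rps27: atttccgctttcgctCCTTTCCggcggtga
Rpl22: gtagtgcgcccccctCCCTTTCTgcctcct
Rpl22l1: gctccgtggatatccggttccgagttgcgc

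These windows lie at chr10:83519049-83519078 (Rpl19, plus strand), chr9:81748076-81748105 (Rpl37a, plus), chr6:50999431-50999460 (Rps7, minus), chr20:4933730-4933759 (Rps18, plus), chr2:177964592-177964621 (Rps27, minus), chr5:168117946-168117975 (Rpl22, plus) and chr2:113683181-113683210 (Rpl22l1, plus). In 16 of the 64 windows, Rpl22l1, Rpl3 and Rps19 among them, no such run began within 10 bases of the annotated start.

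The 75th percentile of an array's processed signal ranged from 433 to 1284, and the median background from 38 to 48. On each array 64.1% to 74.7% of the spots were well above background. No spot of the members was saturated. All 8 hepatocyte markers examined (albumin and others) were measured, with a summed level of 9.79 to 10.94, and 0 of 8 differed in either comparison that called many genes. Levels throughout are log2 signals relative to the 75th percentile of the array. There were 3 slides of 8 arrays. Slide 1 held the 6 rats given both changes and 2 of those given 30% sucrose with adequate copper. Slide 2 held the other 4 of the latter and 4 given low copper at 10% sucrose, and slide 3 the remaining 2 of these and the 6 controls. Diet and slide therefore overlap in large part.

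At the scaling used, and with the brightest probe of each gene, 1 of the 80 ribosomal protein genes passed the test, in 1 of 6 comparisons. The median level of the 80 members in a rat ran from 6.09 over 6.36 to 6.53 (lowest, median, highest) on the control diet, from 6.20 over 6.36 to 6.61 on low copper with 10% sucrose, from 6.08 over 6.40 to 6.59 on adequate copper with 30%, and from 6.10 over 6.26 to 6.49 on low copper with 30%. The means were 6.35 ± 0.17, 6.37 ± 0.16, 6.36 ± 0.22 and 6.27 ± 0.16 (SD, n = 6 each) in that order. All 4 diets overlapped, and the gap between the highest and lowest mean was smaller than 1 SD of any diet. The distance between a member's highest and lowest diet mean had a median of 0.11 over the 80 members, against 0.33 over all genes tested, and was under 0.2 for 73 members.

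**Figure D1:**
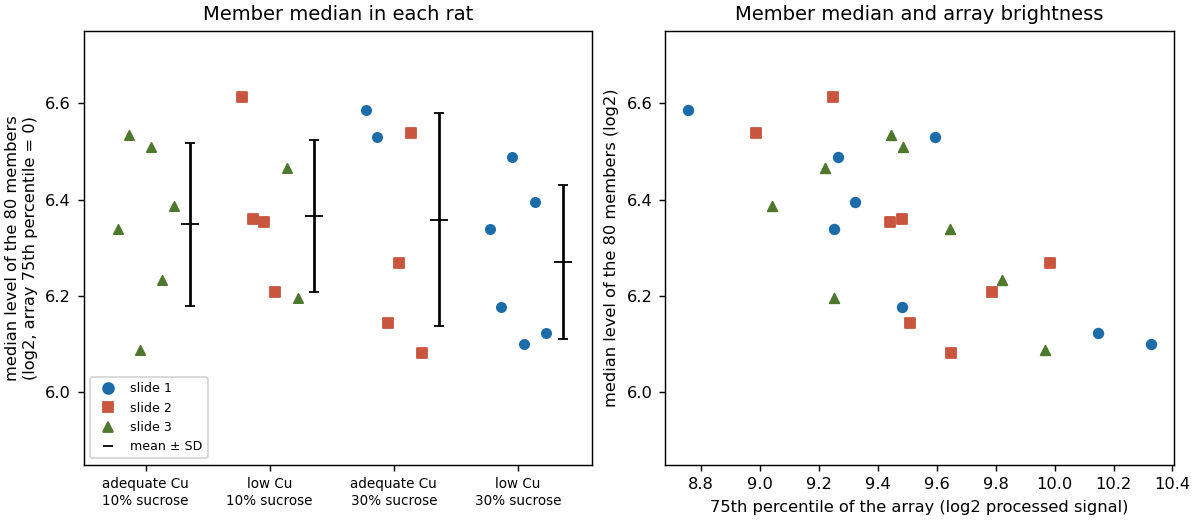
The left panel plots the median level of the 80 members in each rat (log2, with the 75th percentile of the array at 0) by diet, with symbols for the slide and the mean ± SD of 6 rats; the 4 diets overlap between 6.08 and 6.61. The right panel plots the same values against the array's 75th percentile (log2 processed signal); the 4 arrays above 1000 in signal lie between 6.09 and 6.27.

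Low copper was compared with adequate copper at 10% sucrose to see what copper restriction did on the lower sugar level. Of all genes, 18% were called higher and 0.595% lower (limma, Benjamini-Hochberg adjusted p under 0.05 over 18641 genes). Of the 80 members, 0 were called higher and 1, Rpl15, lower. At an unadjusted p under 0.05 there were 1 member and 28.1% of all genes. In 0 members did every rat on low copper lie above every control rat, as in 5.12% of all genes. The median difference of the members was 0.02 on the log2 scale, against 0.05 for all genes. A fixed slide block gave -0.04, against 0.04, with 0 calls in all and 0 of 80 members and 6.72% of all genes at an unadjusted p under 0.05 (limma). The split of all calls depends on the scaling: 3358 genes were higher and 111 lower as scaled here, 1586 and 425 after quantile normalization, and 2475 and 1961 with the median of each array subtracted, which moved the median of all genes to -0.16 and that of the members to -0.20. With that last scaling 4 members were called lower, Rpl15, Rpl27, Rpl36al and Rps2-ps7, and 0 higher.

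Rpl15 encodes a protein of the large subunit, and 1 probe represents it. That probe was dim among the members, with a mean level of -2.63, while the member median of a rat lay between 6.08 and 6.61. Its level ran from -2.74 over -2.37 to -2.21 on the control diet and from -2.997 over -2.72 to -2.63 on low copper with 10% sucrose. It ran from -2.84 over -2.63 to -2.18 on adequate copper with 30% sucrose and from -2.94 over -2.78 to -2.54 on low copper with 30%. At 10% sucrose all 6 rats on low copper lay below the control mean, and the groups overlapped through the lowest control rat. The difference was -0.32 (SE 0.11, 95% interval -0.55 to -0.09, limma adjusted p = 0.0426). Within slide 3, which holds 2 of the 6 rats on low copper and all controls, it was -0.31. The call was lost with slide as a random block (limma adjusted p = 0.0672) and without rat 2 of low copper with 10% sucrose (limma adjusted p = 0.114). It was also lost under many other settings, and 22 of 40 alternatives kept it (limma adjusted p from 0.0052 to 0.749). Of these 40, 24 left out 1 rat each, and 9 of those 24 lost the call. The values of the diet with both changes were as low, and against the control diet they gave -0.32 (SE 0.11, limma adjusted p = 0.111). The probe sits at base 1863 of its transcript (chr15:9085404-9085463, rn4, plus strand). Whether that stretch is coding was not examined. Its first 30 of 60 bases show which stretch was read.
Rpl15: ctcagcaaaacaagtcactgtgtgtagagg

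At 30% sucrose the same copper comparison called 0 of 80 members, and 0% of all genes in either direction by limma, with 1839 genes (9.87%) and 0 members at an unadjusted p under 0.05. The median difference was -0.05, against -0.04 for all genes, and 15 of 80 members were above 0, against 43% of all genes. The 3 members with the smallest p were Rpl15 at -0.19 (SE 0.11), Rpl3, a core large-subunit protein beside the peptidyl transferase centre, at -0.17 (SE 0.12), and Rps6, the small-subunit protein phosphorylated by S6 kinase, at -0.16 (SE 0.12). None passed the test. Within slide 1, with 6 rats on low and 2 on adequate copper, 79 of 80 members lay below 0. The 1 member above 0 was Rpl15, at 0.009. The median of the members was -0.25, against -0.09 for all genes. Both adequate-copper rats of slide 1 were near the top of their diet, with member medians of 6.53 and 6.59. Slide 1 alone held both diets, so a fixed slide block gave the same medians, -0.25 and -0.09, and is no separate result. In that fit 0 members were called and 20 genes in all, with 5 of 80 members and 7.75% of all genes at an unadjusted p under 0.05 (limma).

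The second main comparison set 30% against 10% sucrose at adequate copper. It called 18.4% of all genes higher and 2.48% lower, and 0 of the 80 members in either direction (1 member and 32.9% of all genes at an unadjusted p under 0.05, in limma). In 0 members did every rat on 30% sucrose lie above every control rat, as in 11.9% of all genes. The median difference of the members was 0.01, against 0.07 for all genes. The fixed slide block gave -0.18, against -0.03, with 0 calls in all and 1 of 80 members and 4.07% of all genes at an unadjusted p under 0.05 (limma). The smallest p belonged to Rps2-ps7, a pseudogene copy of the small-subunit gene Rps2. Its level ran from 1.70 over 2.38 to 2.58 on the control diet and from 1.76 over 1.79 to 2.37 on adequate copper with 30% sucrose. The groups overlapped, and the difference was -0.34 (SE 0.14, limma adjusted p = 0.0977). Rps25 and Rps24, small-subunit proteins, followed at -0.24 (SE 0.12) and 0.15 (SE 0.11). With the median of each array subtracted, all genes moved to a median of -0.14 and the members to -0.20, with 2530 genes called higher and 2707 lower. Among these, 5 members were called lower (Rps2-ps7, Rps25, Rpl14, Rps21 and Rpl15). Leaving out rat 2 of adequate copper with 30% sucrose, or rat 3 of the control diet, turned Rps2-ps7 into a call (limma adjusted p = 0.0319 and 0.023).

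At low copper, sucrose called 0 members and 0% of all genes in either direction (0 members and 9.58% of all genes at an unadjusted p under 0.05, in limma). The median difference was -0.06, against -0.05 for all genes, and the members with the smallest p were Rpl12-ps1, a pseudogene copy, at -0.22 (SE 0.15), Rpl19 at -0.18 (SE 0.13) and Rps6 at -0.17 (SE 0.12). Under the slide block the member median was -0.39, against -0.16 for all genes. That fit called 0 members and 6 genes in all, and 20 of 80 members and 12.3% of all genes had an unadjusted p under 0.05 (limma). No slide held both of these diets, so the blocked difference rests on the other diets that share their slides.

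Low copper with 30% sucrose against the control diet called 1.72% of all genes higher and 0.0376% lower, and 0 members (1 member and 17.1% of all genes at an unadjusted p under 0.05, in limma). The member median was -0.06, against 0.05 for all genes. After Rpl15, the smallest p belonged to Rps25 at -0.22 (SE 0.12) and the small-subunit gene Rps9 at -0.21 (SE 0.12). Blocked on slide, the member median was -0.44, against -0.12 for all genes, with 0 calls in all and 4 of 80 members and 4.54% of all genes at an unadjusted p under 0.05 (limma). No slide held both of these diets either.

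The copper by sucrose interaction, the copper difference at 30% sucrose minus that at 10%, called 1.94% of all genes higher and 18.9% lower. It called 0 members (0 members and 33.5% of all genes at an unadjusted p under 0.05, in limma), with a median of -0.06 against -0.10. The medians were -0.20 and -0.13 with slide as a fixed block, and 0 members and 10 genes in all were called, with 1 of 80 members and 13.6% of all genes at an unadjusted p under 0.05 (limma). The smallest p belonged to Rps2-ps7 (0.38, SE 0.20), Rpl12-ps1 (-0.35, SE 0.21) and Rps16 (-0.37, SE 0.23). With the median of each array subtracted it called 4 members higher: Rpl22l1, Rpl36al, Rps2-ps7 and Rps21.

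**Figure D2:**
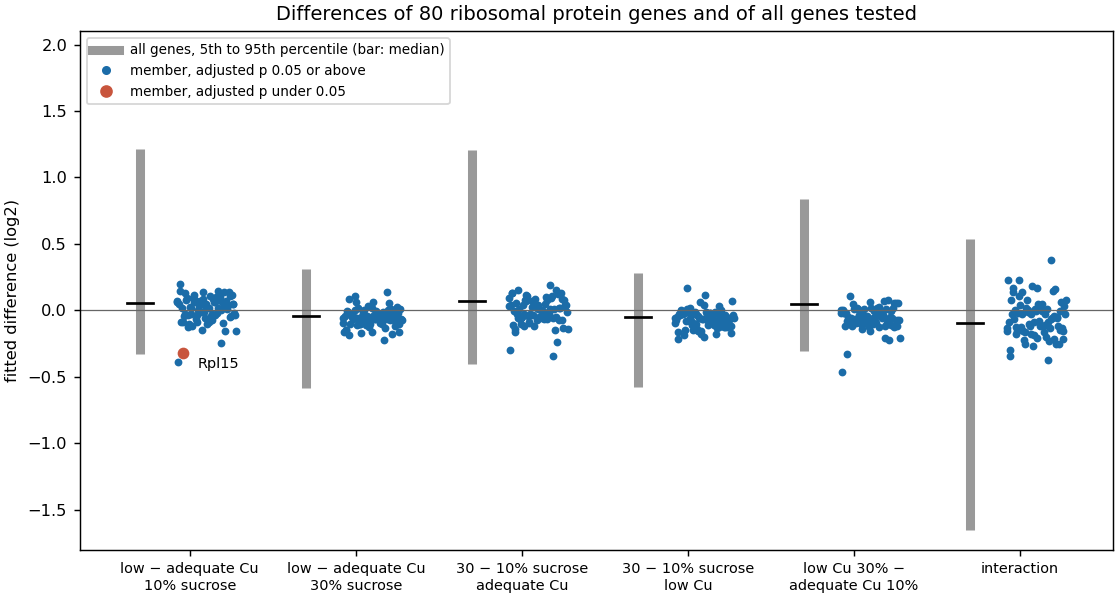
Each point is the fitted log2 difference of 1 of the 80 members in 1 of 6 comparisons, beside a bar for the 5th to 95th percentile of all 18641 genes with their median. By the brightest probe of each gene, Rpl15 at 10% sucrose is the only member past the threshold at the scaling used. Nearly all members lie inside the range of all genes, which reaches 1.21 in both comparisons that called many genes and -1.65 in the interaction.

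The intervals of single members were narrow in the fit without slide. The 95% interval of the difference lay inside 1.5-fold in either direction for 79 of 80 members for copper at 10% sucrose, 79 for copper at 30%, 78 for sucrose at adequate copper, 79 for sucrose at low copper and 79 for both changes. For all genes the shares were 49.4%, 54.7%, 46.3%, 55.3% and 54.4%. The interaction is estimated with a larger error, and there 64 of 80 members and 25.6% of all genes had such an interval. With slide as a fixed block the errors were larger. The median SE of the members was then 0.17 for both copper comparisons, 0.22 for both sucrose comparisons and 0.28 for both changes, against 0.12 without the block. Intervals of the blocked fit were not counted.

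Without a slide block both subunits had medians near 0. The 43 large-subunit genes had a median difference of 0.02 for copper at 10% sucrose and -0.03 for sucrose at adequate copper. The 30 small-subunit genes had 0.03 and 0.02. For sucrose at low copper 38 of 43 and 28 of 30 lay below 0, with medians of -0.06 and -0.07. All genes also had a median below 0 there, at -0.05, and their share below 0 is not given here. The fixed slide block gave -0.37 and -0.42 there, against -0.16 for all genes. For both changes it gave -0.44 in either subunit, against -0.12, and for copper at 10% sucrose -0.05 and -0.02, against 0.04. Rpl15 was the only call in either subunit at this scaling with the brightest probe of each gene.

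Members with known roles outside the ribosome, or with a tissue-specific relative, were followed in every comparison by a list of 27 names, of which 25 were on the array and 23 tested. By the brightest probe of each, and at the scaling used, none was called in any comparison. A dimmer probe of Rpl36a, treated below, was called. Without Rpl10l, the differences of the brightest probes ran from -0.15 to 0.11 for copper at 10% sucrose. For sucrose at adequate copper they ran from -0.13 to 0.11. Rpl5 and Rpl11, which bind MDM2 and so can stabilise p53 when ribosome assembly fails, differed by -0.10 (SE 0.13) and 0.05 (SE 0.11) for copper at 10% sucrose. On the control diet Rpl11 ran from 6.21 over 6.47 to 6.61, and on low copper with 10% sucrose from 6.33 over 6.44 to 6.70. Rpl5 ran from 3.93 over 4.26 to 4.47 and from 3.96 over 4.14 to 4.33. Both pairs of groups overlapped along most of their range.

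Rps6 had levels from 5.67 over 6.02 to 6.13 on the control diet, and from 5.82 over 5.96 to 6.30, from 5.71 over 6.04 to 6.31 and from 5.70 over 5.84 to 6.00 on low copper with 10%, adequate copper with 30% and low copper with 30% sucrose. Rps19 and Rps14, small-subunit proteins whose reduced dose impairs red cell formation in people, differed by 0.10 (SE 0.15) and -0.04 (SE 0.12) for copper at 10% sucrose. Rpl13a, Rpl19 and Rpl32, often used as reference genes, differed by 0.02 (SE 0.11), 0.08 (SE 0.13) and -0.04 (SE 0.12) there, and by -0.01 (SE 0.11), -0.06 (SE 0.13) and -0.09 (SE 0.12) for sucrose at adequate copper. Rps27a, which is made as a fusion with ubiquitin, differed by 0.01 (SE 0.10) and -0.07 (SE 0.10).

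Among the paralogs, Rpl22l1 differed by -0.12 (SE 0.13) for copper at 10% sucrose and its partner Rpl22 by -0.03 (SE 0.11). Rpl36al differed by -0.15 (SE 0.10) and Rpl36a, by its brightest probe, by -0.01 (SE 0.14). Rpl10l, a relative of Rpl10 best known from the testis, varied most between rats. It ran from -2.23 over -0.74 to 0.39 on low copper with 30% sucrose alone, an SD of 1.07 (n = 6). Its SD within a diet, pooled over the diets, was 0.78. The Rpl10l differences of -0.39 (SE 0.42) for copper at 10% sucrose and -0.30 (SE 0.42) for sucrose at adequate copper were smaller than that pooled SD. Probes of different members shared no stretch of 15 or more bases (10359 pairs of probes, longest shared stretch 14). Even so, 40 of the 145 probes list more than 1 RefSeq transcript, and ribosomal proteins have many pseudogene copies, so signal from near-identical copies cannot be separated.

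The members varied together from rat to rat. Within a diet, their SD had a median of 0.200, against 0.318 over all genes and 0.238 over the 874 other genes with a level of at least 5. When each array was centred on its own member median the median SD of the members fell to 0.102, with 66 of 80 under 0.15. The centring uses the members themselves, so some fall is built in. Rpl37a, a large-subunit zinc finger protein, by its brightest probe, then had the smallest SD at 0.046 and Rps14 one of 0.055. For 7 members the SD was larger after centring than before, Rpl5 (0.218 and 0.273), Rpl15 (0.175 and 0.233) and Rpl7l1 (0.159 and 0.237) among them, chosen here after their values were seen.

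**Figure D3:**
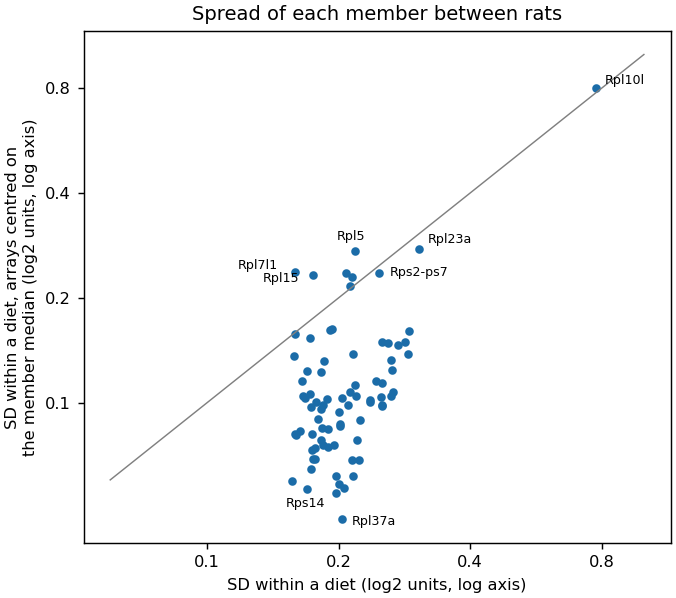
Each point is 1 of the 80 members, with its SD between rats within a diet on the x axis and the same SD after each array was centred on the member median on the y axis (log2 units, both axes logarithmic); the line marks equal values. Most members lie below the line near 0.2 and 0.1, while Rpl10l lies at about 0.8 on both axes.

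The shared level was lower on the brightest arrays than on the dimmest. That level has the array's 75th percentile subtracted, so some fall with brightness is built in. The 4 arrays whose 75th percentile exceeded 1000 had member medians from 6.09 to 6.27, and the 3 arrays under 550 had medians from 6.39 to 6.59. Between these limits the order was loose, with the lowest median of all, 6.08, at 803 and a median of 6.53 at 773. Before scaling, the member median rose by 0.68 per log2 unit of the 75th percentile. Low copper with 30% sucrose included the brightest array, at 1284, and had the lowest mean for 52 of the 80 members. The share of all genes with their lowest mean on that diet is not given here. The part of array brightness in the members' order of diets was not tested. With the 75th percentile as a covariate 0 members were called higher and 1, Rpl15, lower for copper at 10% sucrose. For sucrose at adequate copper 0 were called. Neither comparison includes low copper with 30% sucrose, so these counts do not bear on that order.

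Several probes were available for 46 of the members, and the tests above used the brightest. With all 141 kept probes as rows, 2 further probes were called, both higher for copper at 10% sucrose, where 17.3% of all probes were called higher. The first belongs to Rpl36a, a large-subunit protein, and was named because its probes differed in sign. The second belongs to Rpl37a, and was chosen after its values were seen.

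The called Rpl36a probe sits at base 600 of the transcript (chrX:122044492-122044551, rn4, plus strand), and its 3 sister probes start at bases 171 to 350. Its level ran from -5.32 over -4.84 to -4.57 on the control diet, from -4.44 over -3.94 to -3.50 on low copper with 10% sucrose, from -4.47 over -4.15 to -3.57 on adequate copper with 30%, and from -4.81 over -4.12 to -3.54 on low copper with 30%. Every rat fed low copper with 10% sucrose, and every rat fed 30% sucrose with adequate copper, lay above all controls, as was the case for 4.97% and 11.6% of all probes. The differences were 0.89 (SE 0.21, limma adjusted p = 0.00407) for low copper and 0.82 (SE 0.21, limma adjusted p = 0.00702) for sucrose. The sister probes lay between -0.05 and 0.02 for copper and between -0.04 and 0.0046 for sucrose, and none passed. The calls for copper and for sucrose were lost under quantile normalization (0.44, limma adjusted p = 0.108, and 0.37, limma adjusted p = 0.157) and under normexp background correction (0.40 and 0.39).

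The called Rpl37a probe lies at base 644 of the transcript that the array annotates as variant 2 (chr9:71841866-71841925, rn4, plus strand), while both brighter Rpl37a probes are placed on chromosome 5. The mean levels of those brighter probes were 7.47 and 5.63, against -2.88 for the called probe. In GRCr8 the annotated Rpl37a start is on chromosome 9. Whether the probes on chromosome 5, the brightest among them, read a copy of the gene was not resolved. The probe ran from -3.71 over -3.24 to -3.09 on the control diet, from -2.98 over -2.54 to -2.13 on low copper with 10% sucrose, from -2.88 over -2.58 to -2.30 on adequate copper with 30%, and from -3.37 over -3.10 to -2.75 on low copper with 30%. Again every rat of the diets with 1 change lay above every control rat. The differences were 0.77 (SE 0.15, limma adjusted p = 0.00158) for copper and 0.72 (SE 0.15, limma adjusted p = 0.00253) for sucrose, where 17.6% of all probes were called higher. The brightest Rpl37a probe gave 0.08 (SE 0.12) and 0.03 (SE 0.12). The first 30 bases of both called probes are printed to show that they are separate sequences.
Rpl36a: aaagtagagtagagagtcttatttacagtc
Rpl37a: gctgagatgaagcctcctgtctgtcattgt

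Both probes also passed in the interaction, where 18.2% of all probes were called lower: -1.02 (SE 0.29, limma adjusted p = 0.0155) for Rpl36a and -1.24 (SE 0.21, limma adjusted p = 0.00114) for Rpl37a. Of 39 alternatives, 34 kept the interaction call of the Rpl36a probe (values from -1.15 to -0.31, limma adjusted p up to 0.368). For the Rpl37a probe 38 kept it (from -1.33 to -0.74, limma adjusted p up to 0.278). The 39 include 24 fits that left out 1 rat each, and all losses lay among the other alternatives. With slide as a fixed block the interaction was -0.90 for Rpl36a and -0.74 for Rpl37a, and neither was called. With that block the differences for copper at 10% sucrose were 0.70 for the Rpl36a probe and 0.40 for the Rpl37a probe, and those for sucrose 0.51 and 0.23, none of them called. With that block 0 of 18641 genes were called in either comparison by limma, with 1252 and 758 genes at an unadjusted p under 0.05. For copper at 10% sucrose the block rests on slide 3, where 2 rats met 6 controls, and no slide held both sucrose levels at adequate copper. Markers of several cell types moved with the same diets. For copper at 10% sucrose 3 of 7 measured lymphocyte markers and 2 of 5 neutrophil markers were called higher, and for sucrose at adequate copper 3 and 4, where 18% and 18.4% of all genes were called higher. The median difference was 0.53 and 0.58 for the lymphocyte markers and 1.33 and 1.90 for the neutrophil markers. Under the fixed slide block these became -0.13 and -0.25, and 0.86 and 1.499. The summed lymphocyte level ran from -0.34 to 0.18 on the control diet, from -0.02 to 1.52 on low copper with 10% sucrose and from 0.44 to 1.18 on adequate copper with 30%. The summed neutrophil level ran from -2.56 to -1.84, from -1.89 to 1.79 and from -1.21 to 4.25 on those diets. The part of these cell types in the probes' difference was not tested. In whole tissue, a change in the number of cells of a type and a change in RNA per cell cannot be told apart.

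**Figure D4:**
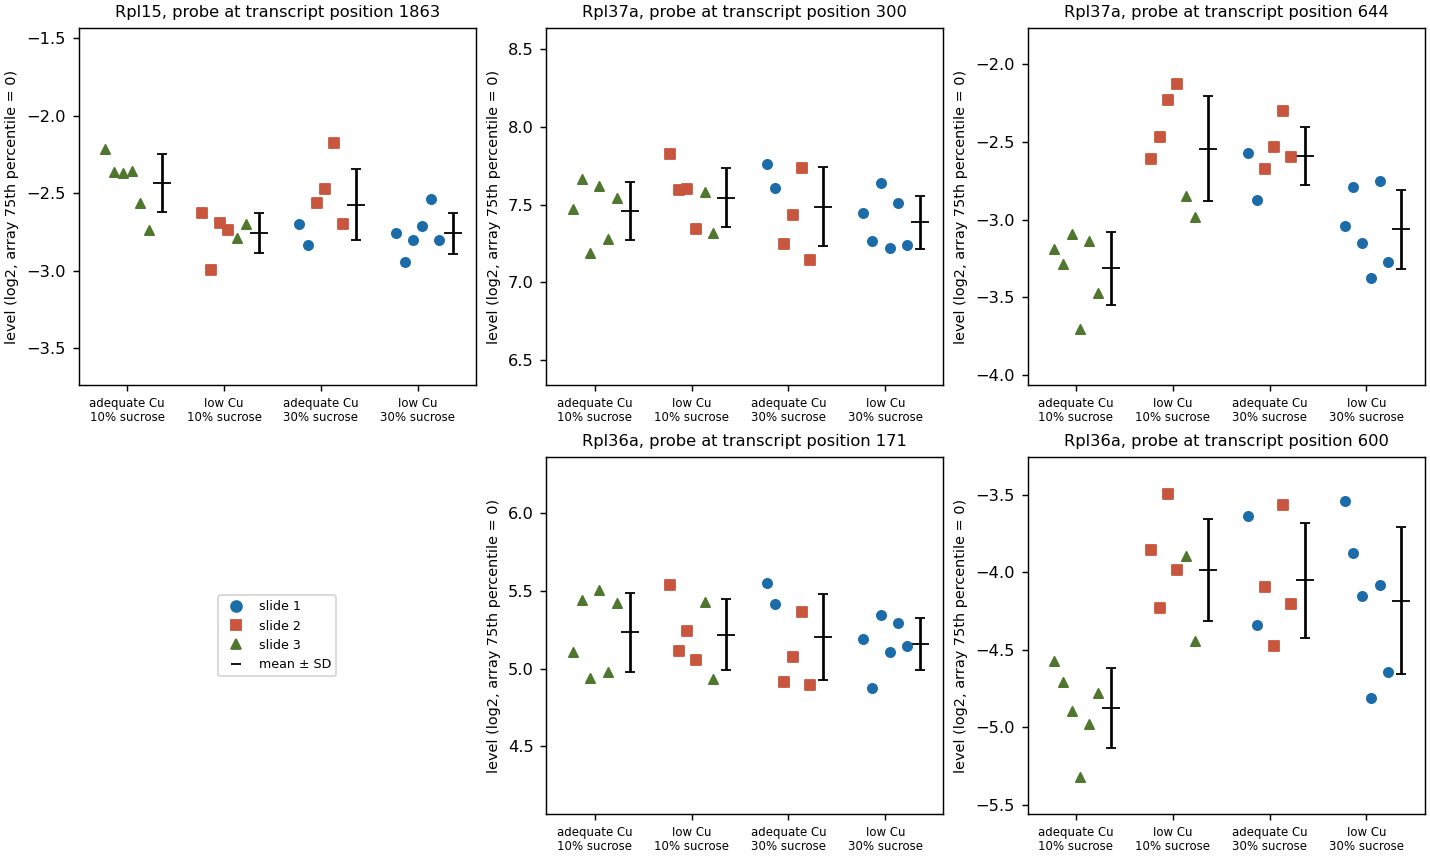
Each panel plots the level of 1 probe (log2, with the 75th percentile of the array at 0) in each rat by diet, with symbols for the slide and the mean ± SD of 6 rats: Rpl15, and the brightest and the called probe of Rpl37a and of Rpl36a. All panels span the same number of log2 units, and the right panels show the controls below both diets with 1 change while the middle panels show the diets overlapping.

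Genes that work with the ribosomal proteins were counted as lists. Of all genes, 18% were called higher and 0.595% lower for copper at 10% sucrose, and 18.4% and 2.48% for sucrose at adequate copper, and the counts of each list stand against these shares. The 16 other genes known to carry the oligopyrimidine start, such as elongation factors, had 0 calls, with medians of -0.03 for copper at 10% sucrose and 0.01 for sucrose at adequate copper. Among 35 ribosome biogenesis genes, 2 rose and 0 fell for copper at 10% sucrose: Polr1a, the largest subunit of RNA polymerase I, by 1.42 (SE 0.34, limma adjusted p = 0.0052), and Wdr43 by 0.57 (SE 0.16, limma adjusted p = 0.0155). For sucrose at adequate copper Polr1a rose by 1.08 (SE 0.34), while Sbds, which readies the large subunit for use, fell by 0.53 (SE 0.17) and Polr1b fell by 0.64 (SE 0.21). Blocked on slide, Polr1a was at 0.48 and Wdr43 at 0.42 for copper, and Polr1a at -0.34, Sbds at -0.42 and Polr1b at -0.40 for sucrose, none of them called.

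Among 25 regulators of ribosomal protein synthesis, Max, the partner of Myc, rose by 0.48 (SE 0.11, limma adjusted p = 0.00305) for copper at 10% sucrose, and Eif4ebp2, a repressor of cap-dependent translation under mTOR, fell by 0.45 (SE 0.14, limma adjusted p = 0.0248). For sucrose at adequate copper Max rose by 0.42 (SE 0.11), Eif4ebp2 fell by 0.58 (SE 0.14) and Mtor itself fell by 0.55 (SE 0.16, limma adjusted p = 0.0191). Blocked on slide, Max was at 0.20 and Eif4ebp2 at -0.41 for copper, and Max at -0.04, Eif4ebp2 at -0.51 and Mtor at -0.34 for sucrose, none of them called. Mitochondrial ribosomal proteins, which build the separate ribosome of the mitochondrion, had 2 of 69 called higher (Mrpl47 and Mrpl35) and 1 lower (Mrpl20) for copper, and 2 higher and 5 lower for sucrose, with medians of -0.05 and -0.07. Mrpl18, Mrpl15, Mrpl3, Mrpl20 and Mrps23 were the 5 lower genes. Blocked on slide, Mrpl47 was at 0.43, Mrpl35 at 0.20 and Mrpl20 at -0.29 for copper. For sucrose the 2 higher genes, Mrpl47 and Mrpl35, were then at 0.39 and 0.01, and the 5 lower genes between -0.67 and -0.23. None of them was called with the block.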

How the data were processed

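Liver RNA of 24 rats was measured on 1-colour Agilent arrays with probes of 60 bases. Per the submitters' processing notes, spots were read with Agilent Feature Extraction 10.7.3.1. Per the file headers, the processed signals deposited are intensities from which background was subtracted, without scaling between arrays, and probe positions refer to rn4. The deposited mean, background and background-subtracted signals are intensities too. The authors' series table is a score: its columns all have their median at 0 (to within 3.5e-11) and their interquartile range at 1, and it follows the background-subtracted signal (correlation 0.987 to 1.00 per array), so its scale and direction are known from that match. The linear centre was set here, as an alternative only. Deposited spot marks, of the unit other, were used as marks.

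Spots were put on the log2 scale, and each array's 75th percentile was taken off. Marked outlier spots (0.652%) were left out unless all spots of a probe were marked. A probe was kept if well above background on at least 6 arrays, and the brightest probe stood for a gene name. limma 3.58.1 (in R 4.3.3; tables were read by data.table, release 1.17.8, and figures drawn by matplotlib 3.10.9) fitted a mean per diet on all 24 arrays, two-sided, with Benjamini-Hochberg adjustment over 18641 genes at 0.05 in each of 6 comparisons. The number of arrays limits the precision. The fit was tested on simulated data.

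Members and lists were chosen with earlier results of these data known. Named genes were the members past the threshold, or else the 3 with the smallest p, a fixed list of 27 names, members whose probes differed in sign where 1 passed, and genes of each other list with the smallest p. Alternatives changed background correction, scaling, filter, probe choice, block, fit and rats. Replicate numbers did not pair the rats (36 pairs of same-numbered rats, correlations from -0.29 to 0.36, 12 of them over 0.1). A list of ribosomal proteins outside the name rule is not reported here.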

Additional observations from a re-analysis of the deposited data

Results flagged for a closer look

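In 5 of 132 sets of 6 rats examined (30 members, the member median and 2 probes in 4 diets), 1 rat stood apart from the other five by more of the range than Dixon's 95% limit for 6 values; chance alone flags about 1 set in 20. Rpl3 was low in rat 3 of the control diet, at 5.64 against 5.95 for the nearest rat. Rpl36al was high in rat 1 of low copper with 10% sucrose, at 4.82 against 4.65. Rpl7l1 was high in rat 6 of the control diet, at 1.47 against 1.01. Rps2-ps7 was high in rat 5 of low copper with 10% sucrose, at 2.47 against 2.01. Rps4x was high in rat 2 of adequate copper with 30% sucrose, at 4.11 against 3.63.

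The copper effect differed between the sucrose levels, by the interaction term, for the dim probes of Rpl37a (-1.24, limma adjusted p = 0.00114) and Rpl36a (-1.02, limma adjusted p = 0.0155). Diet and slide overlap, and with slide as a fixed block neither passed (-0.74, limma adjusted p = 0.278, and -0.90, limma adjusted p = 0.368). The Rpl36a call was also lost with normexp correction, quantile normalization, slide as a random block and the authors' series table (-0.61, -0.38, -0.99 and -0.31).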

How the results depend on the processing

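Every count of called members and every member median was recomputed under 16 alternatives, 3 of them chosen after seeing the data, and without each of 24 rats. For copper at 10% sucrose, the 1 member called lower became 0 with normexp correction, without the filter on dim probes, with all arrays required above background, with slide as a fixed or random block, only the groups compared, an intensity trend, centring on the member median, and without 2 rats that had stood apart in inflammatory genes. With the median of each array subtracted, 4 members were lower for copper at 10% sucrose, 5 lower for sucrose at adequate copper and 4 higher in the interaction, with member medians of -0.20, -0.20 and 0.25, while all genes moved to -0.16, -0.14 and 0.21. With every probe as a row, 2 members' probes were higher for copper at 10% sucrose, 2 higher for sucrose and 2 lower in the interaction. With the mean of probes, 1 (Rpl37a) was higher for copper and 1 lower in the interaction. Without a filter, 1 (Rpl27-ps1) was lower in the interaction. With slide as a fixed block the member medians were -0.25 for copper at 30% sucrose, -0.18 for sucrose at adequate copper, -0.39 for sucrose at low copper and -0.44 for both changes, against -0.09, -0.03, -0.16 and -0.12 for all genes. For sucrose at low copper 20 of 80 members then had an unadjusted p under 0.05, as did 12.3% of all genes, and 0 members passed after adjustment.

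Leaving out 1 rat gave 0 to 1 members called lower for copper at 10% sucrose and 0 to 1 for sucrose at adequate copper, and 0 for the other counts. Member medians then ran from -0.038 to 0.057 for copper at 10% sucrose, -0.11 to 0.00026 for copper at 30%, -0.053 to 0.053 for sucrose at adequate copper, -0.099 to -0.0097 for sucrose at low copper, -0.12 to -0.023 for both changes and -0.10 to -0.0046 in the interaction. With the replicate number as a block, no count of called members changed: it stayed at 1 lower for copper at 10% sucrose and 0 elsewhere. The authors' series table gave the same counts. The cause of the other shifts was not tested.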
